A study of Arabidopsis thaliana with 12 samples.

Results

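DME (AT5G04560), MPC (AT3G19350) and EC1.5 (AT5G64720), genes known from imprinting in the seed and from the egg cell, were followed across early embryos of Arabidopsis thaliana. They were taken by symbol from the probe sets that the array annotation gives to 1 gene, and are 3 of the 13350 genes so named. DME is read by 3 probe sets, MPC and EC1.5 by 1 each, which makes 5. The ecotype was Col-0 and the platform the Affymetrix ATH1 array, where each probe set is a group of short oligonucleotides for a transcript. The 4 groups hold 3 arrays each. Nuclei of the proembryo, nuclei of the suspensor and nuclei of the whole embryo were sorted by flow cytometry, with tissue-specific marker lines, from ovules with embryos of 2 to 16 cells fixed in 0.1% paraformaldehyde. Whole-embryo cells are RNA of embryos of 8 to 32 cells that were squeezed out of the ovule, washed and extracted with another kit, so stage, fixation and extraction cannot be told apart from cells against nuclei. All plants grew in 16 h light and 8 h dark. The sample titles call the arrays of each group biological replicates. The labels do not name the promoters of the marker lines. They do not say whether replicates were separate plants or how many embryos were pooled. The p-values cover the spread between these replicates alone, and its technical part cannot be told apart.

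DME encodes a DNA glycosylase that removes methylated cytosine from DNA. It is known for acting in the central cell, the female cell whose fertilisation founds the endosperm, where it activates maternal alleles of imprinted genes. MPC, whose protein resembles the C-terminal part of poly(A)-binding proteins, is one of these targets and is known to be expressed from the maternal allele in endosperm. The EC1 genes encode small cysteine-rich proteins that the egg cell secretes when sperm arrive, and that are needed for gamete fusion.

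Levels are the deposited linear intensity values. Differences are on the log2(intensity + 16) scale, where changes of dim genes are understated, and were tested with limma, with Benjamini-Hochberg adjustment across every probe set of the fit and calls made at 0.05. The filter on low values asked for an intensity over the median of the same array on at least 3 arrays of the fit. Of the 5 probe sets, 3 were kept: 250836_at of DME (over the median on 11 of 12 arrays), 258016_at of MPC (12 of 12) and 247245_at of EC1.5 (4 of 12). EC1.5 lay between the 13.9th and the 62.5th percentile of its array. The other DME probe sets were not kept, with 250834_at above the median on 1 array and 250835_at on 0.

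**Figure D1:**
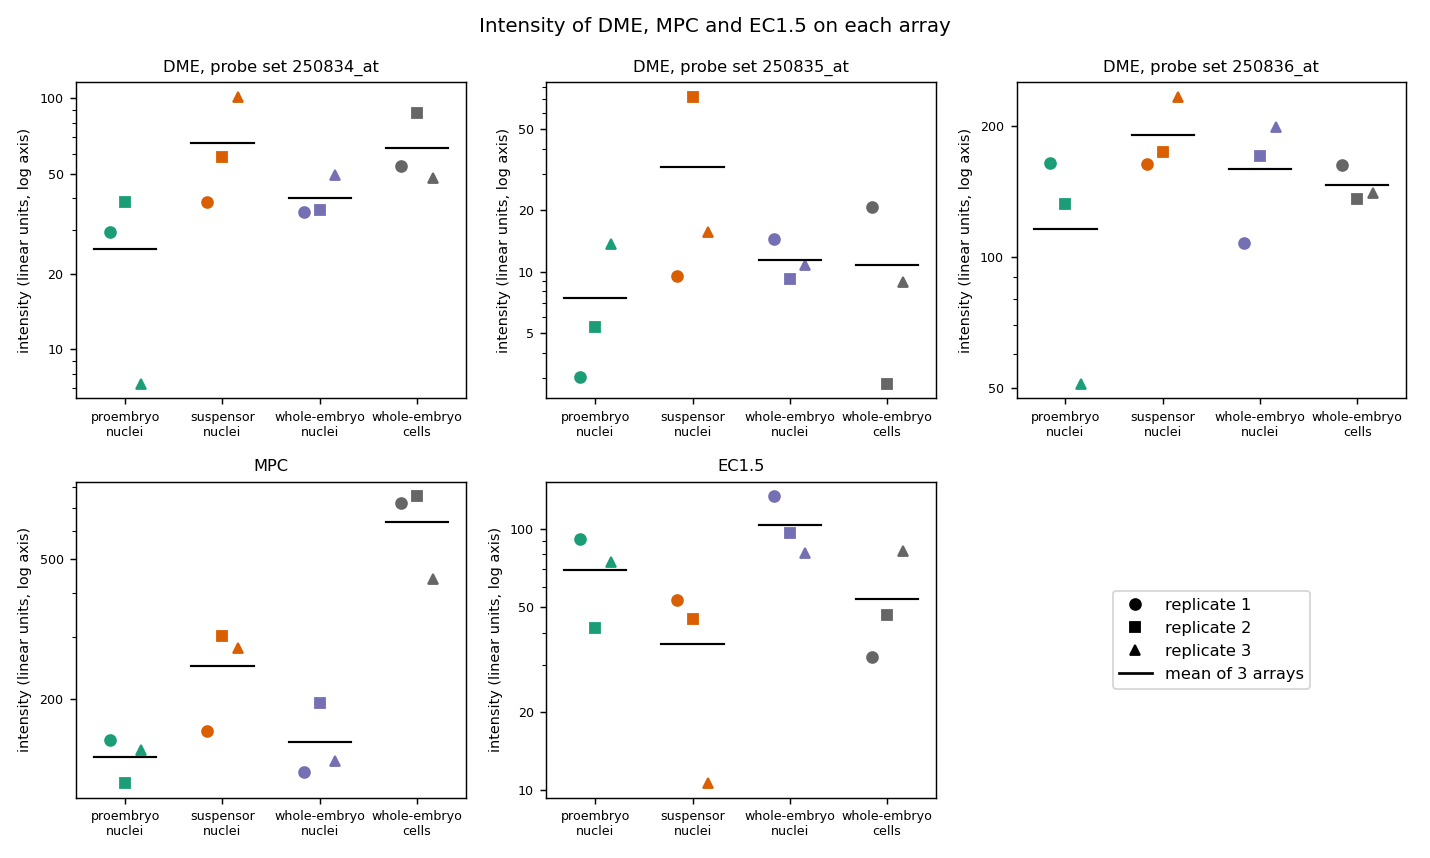
Intensity (linear units on a log axis) of the 5 probe sets of DME, MPC and EC1.5 on each of the 12 arrays; each point is an array, its shape gives the replicate number, and bars are means of 3 arrays. MPC in whole-embryo cells, from 439 to 754, lies above all 9 nuclear arrays, as do 3.20% of the 22746 non-control probe sets, whereas 5 of the 6 pairs of groups overlap on DME 250836_at. Overlapping pairs were not counted for all probe sets.

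MPC was the 1 member with a difference past the threshold, being higher in whole-embryo cells than in nuclei. It read 724, 754 and 439 intensity units in whole-embryo cells against 125, 195 and 134 in whole-embryo nuclei. Every cell array was above every nuclear array, and on the cell arrays MPC stood at percentiles 86.6 to 92.3 of the array. The means were 639 ± 174 and 151 ± 38.2 (SD, n = 3 each), a 3.88-fold difference on the offset scale (log2 difference 1.96, SE 0.294, limma adjusted p = 0.00360). By size this was rank 282 among 11867 probe sets, in a comparison where 2.71% of all probe sets passed as higher in cells and 13.4% had all cell arrays above all nuclear arrays.

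The call on MPC held without any 1 array, with differences from 1.82 to 2.20. It was lost when the level of the spiked hybridisation controls entered the fit as a covariate (1.55, SE 0.416, limma adjusted p = 0.219), a fit in which 8 of all probe sets passed. These controls are bacterial and phage transcripts normally added in fixed amount, and averaged 11.65 ± 0.149 log2 units on the cell arrays, against 12.36 ± 0.561 for nuclei of the whole embryo (SD, n = 3 each; exact two-sided permutation p = 0.1, the smallest that 3 against 3 allows). The 25S ribosomal RNA probe set also separated the groups, with an intensity from 8193 to 10349 on the cell arrays and from 16168 to 23439 on the 9 nuclear arrays. The part of the 25S level in the MPC difference was not tested.

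Because MPC is known from endosperm, which surrounds the embryo in the ovule, endosperm markers are set beside it. Of 9 listed, 3 have a named probe set here: AGL62 and AGL80, MADS-box genes of early endosperm and central cell, and IKU2, a receptor kinase of endosperm growth. Their summed intensity ranged from 239 to 258 in cells and from 165 to 227 in whole-embryo nuclei, and no value was 0. AGL62 and IKU2 overlapped between these groups. AGL80 read 162 to 171 in cells and 125 to 140 in whole-embryo nuclei. All cell arrays lay above all nuclear arrays for 13.4% of the probe sets tested. AGL80 was the 1 marker of the 3 kept in this comparison (0.29, SE 0.248, adjusted p = 0.507). The seed coat gene BAN, the 1 of 8 seed coat markers with a named probe set, read 4780 to 16697 in cells and 6403 to 7493 in whole-embryo nuclei (0.57, SE 0.404, adjusted p = 0.425), and without cell replicate 3 its difference was 1.13 (adjusted p = 0.00936). The part of these tissues in the MPC level was not tested, and in bulk samples fewer cells of a type cannot be told apart from less RNA per cell.

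Among nuclei, MPC read 163, 303 and 280 in the suspensor, the file of cells that joins the embryo to the mother plant. In nuclei of the proembryo, the part from which the plant body grows, it read 153, 115 and 143. All suspensor arrays lay above all proembryo arrays, as they did for 9.61% of the probe sets tested, although suspensor replicate 1 exceeded the highest proembryo array by little. The log2 difference was 0.75 (SE 0.315, 95% interval 0.09 to 1.42), with an unadjusted p of 0.0287 that did not pass over all probe sets (limma adjusted p = 0.250). An unadjusted p under 0.05 was found for 16.0% of them. In this comparison 2.03% of 12787 probe sets passed.

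Suspensor replicate 1 stood apart from the other suspensor arrays in the hybridisation controls too, at 11.39 log2 units against 12.99 and 13.88. Without it the MPC difference was 1.01 (limma adjusted p = 0.0993), and with the control level as a covariate it was 0.66 (SE 0.329, adjusted p = 0.406). The summed endosperm markers ranged from 227 to 387 in suspensor and from 149 to 227 in proembryo nuclei, and BAN from 7828 to 11449 and from 4435 to 7835. Their part in the MPC values was not tested.

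Whole-embryo nuclei, which hold both lineages, overlapped with each of them. For MPC, suspensor minus whole-embryo nuclei was 0.64 (SE 0.315, limma adjusted p = 0.368), where 1.56% of probe sets passed. Proembryo minus whole-embryo nuclei was -0.11 (SE 0.315, 95% interval -0.77 to 0.56), in a comparison where 0% passed by limma and 3.14% of 12787 probe sets had an unadjusted p under 0.05. The order of mean MPC level was cells (9.32 log2 units), suspensor nuclei (8.00), whole-embryo nuclei (7.36) and proembryo nuclei (7.25). Cells exceeded their neighbour in this order, suspensor nuclei, by 1.31 (SE 0.309, limma adjusted p = 0.00863) in the fit of all 12 arrays, in which 7.32% of probe sets passed as higher in cells for this pair. The neighbours further down did not differ past the threshold.

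**Figure D2:**
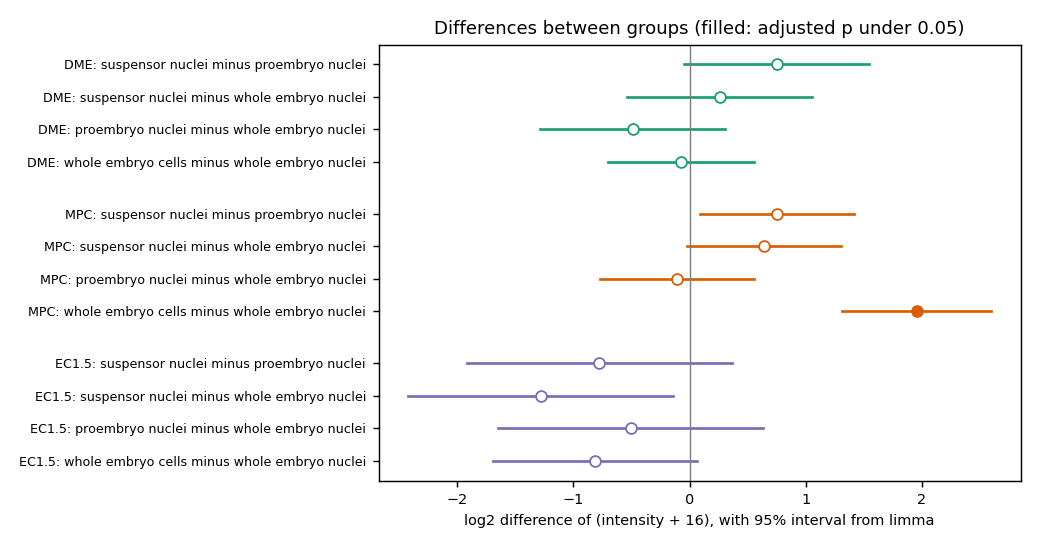
Log2 differences between groups for the probe sets kept of DME (250836_at), MPC and EC1.5, with 95% intervals from limma; filled points have an adjusted p under 0.05. MPC in cells against nuclei, at 1.96, is the filled point, and the intervals of the 4 DME differences include 0.

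For DME, the demethylase, the brightest probe set, 250836_at, read 164, 133 and 51.2 in proembryo nuclei. It read 164, 174 and 234 in suspensor nuclei, 108, 171 and 199 in whole-embryo nuclei, and 163, 136 and 140 in cells. Proembryo replicate 3 was the low array. The ranges overlapped for 5 of the 6 pairs of groups, and the remaining pair, suspensor nuclei and cells, was set apart by less than 1 intensity unit between its nearest arrays. The share of all probe sets that are set apart in this pair was not counted. Whether 5 overlapping pairs of 6 is unusual therefore cannot be told.

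Suspensor minus proembryo nuclei was 0.75 for DME 250836_at (SE 0.378, 95% interval -0.05 to 1.55, limma adjusted p = 0.343). Without proembryo replicate 3 the difference was 0.32 (adjusted p = 0.766). Suspensor minus whole-embryo nuclei was 0.26 (SE 0.378, adjusted p = 0.806) and proembryo minus whole-embryo nuclei -0.49 (SE 0.378, 95% interval -1.28 to 0.31). Cells and whole-embryo nuclei differed by -0.07 (SE 0.287, 95% interval -0.70 to 0.55, adjusted p = 0.903), in a comparison where 6.77% of probe sets passed in either direction. In order of mean level the groups were suspensor nuclei (7.68), whole-embryo nuclei (7.42), cells (7.34) and proembryo nuclei (6.93), and no neighbours in this order differed past the threshold. The pair of cells and proembryo nuclei, compared in the fit of all 12 arrays, differed by 0.41 (SE 0.358, adjusted p = 0.534), where 8.29% of probe sets passed.

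The dimmer DME probe sets were compared between the same groups without the filter. Probe set 250834_at read 29.3, 38.8 and 7.30 in proembryo and 38.6, 58.3 and 102 in suspensor nuclei, so the ranges overlapped by a narrow margin. It read 35.1, 35.9 and 49.7 in whole-embryo nuclei and 53.8, 87.8 and 48.3 in cells, where the lowest cell array lay below the highest nuclear one. Probe set 250835_at read 3.05, 5.39 and 13.7 in proembryo and 9.55, 72.0 and 15.7 in suspensor nuclei, with suspensor replicate 2 far above the others. In whole-embryo nuclei it read 14.5, 9.18 and 10.7 and in cells 20.7, 2.83 and 8.86, with the nuclear range inside that of the cells. Proembryo replicate 3 was the lowest proembryo array on 250834_at and 250836_at and the highest on 250835_at.

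In the fit without the filter, suspensor minus proembryo nuclei was 1.02 (SE 0.517) on 250834_at, 0.85 (SE 0.448) on 250835_at and 0.75 (SE 0.401) on 250836_at, with limma adjusted p-values of 0.459, 0.479 and 0.486. The 3 probe sets had the same sign in this comparison, none past the threshold, and share their samples, so they are not 3 independent readings. In cells against whole-embryo nuclei they split, with 0.47 (SE 0.397) on 250834_at against -0.09 (SE 0.307) on 250835_at and -0.07 (SE 0.305) on 250836_at. That difference between probe sets was not tested. Which part of the DME transcript each probe set reads is not given in the sources used here.

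EC1.5, the egg cell gene, was dimmest in the suspensor. It read 53.2, 45.1 and 10.6 in suspensor nuclei against 133, 96.6 and 80.5 in whole-embryo nuclei. The ranges did not overlap, and all suspensor arrays lay below all whole-embryo nuclear arrays for 9.74% of the probe sets tested. With no suspensor array over its median, EC1.5 entered this fit only through the groups in which it was higher. The non-overlap, the rank and the p-values given here are therefore no support for the difference. The log2 difference was -1.28 (SE 0.543, 95% interval -2.43 to -0.14), rank 383 by size among 12787, with an unadjusted p of 0.0302 that did not pass over all probe sets (limma adjusted p = 0.280). An unadjusted p under 0.05 was found for 14.3% of them. Without suspensor replicate 3, the lowest array, it was -0.85 (adjusted p = 0.529), and with the hybridisation control level as a covariate -1.09 (SE 0.523, adjusted p = 0.380).

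In proembryo nuclei EC1.5 read 91.3, 41.8 and 74.9, which overlapped the suspensor and the whole-embryo nuclei. Suspensor minus proembryo nuclei was -0.78 (SE 0.543, limma adjusted p = 0.513), and -0.35 (adjusted p = 0.827) without suspensor replicate 3. Proembryo minus whole-embryo nuclei was -0.51 (SE 0.543, 95% interval -1.65 to 0.64).

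In cells EC1.5 read 32.3, 46.9 and 81.9, and replicate 3 was just above the lowest array of whole-embryo nuclei. The difference from whole-embryo nuclei was -0.81 (SE 0.400, 95% interval -1.69 to 0.06, limma adjusted p = 0.240). The order of mean level was whole-embryo nuclei (6.88 log2 units), proembryo nuclei (6.37), cells (6.06) and suspensor nuclei (5.59), and no neighbours differed past the threshold. In the fit of all 12 arrays cells minus proembryo nuclei was -0.31 (SE 0.492) and cells minus suspensor nuclei 0.47 (SE 0.492). EC1.5 met the filter among nuclei through proembryo replicate 1 and whole-embryo replicates 1 and 2, so it was kept through the groups in which it was higher.

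Of the 12 genes listed for the egg cell and zygote, EC1.2 is the other with a named probe set. It read 2.81, 1.74 and 6.13 in cells against 81.0, 161 and 137 in whole-embryo nuclei. It read 18.8, 222 and 124 in proembryo and 64.8, 81.0 and 73.4 in suspensor nuclei, so the 3 cell arrays were below all 9 nuclear arrays, as they were for 4.48% of the 22746 non-control probe sets. With the median exceeded on only 2 of 6 whole-embryo arrays EC1.2 was not kept in that fit. Without the filter, cells minus whole-embryo nuclei was -2.82 (SE 0.402, limma adjusted p = 0.0105), in a fit where 1.21% of probe sets passed as lower in cells. The cell intensities of EC1.2 lay under the offset of 16 that is added before the logarithm and have no detection call, so -2.82 is no measure of the fold between the groups.

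Among nuclei, EC1.2 stood at -0.24 (SE 0.551, adjusted p = 0.872) for suspensor minus proembryo and -0.63 (SE 0.551, adjusted p = 0.653) for suspensor minus whole embryo. EC1.5 stood at -0.78 and -1.28 in these comparisons, which share their suspensor arrays. EC1.2 was kept among nuclei through proembryo and whole-embryo arrays alone.

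**Figure D3:**
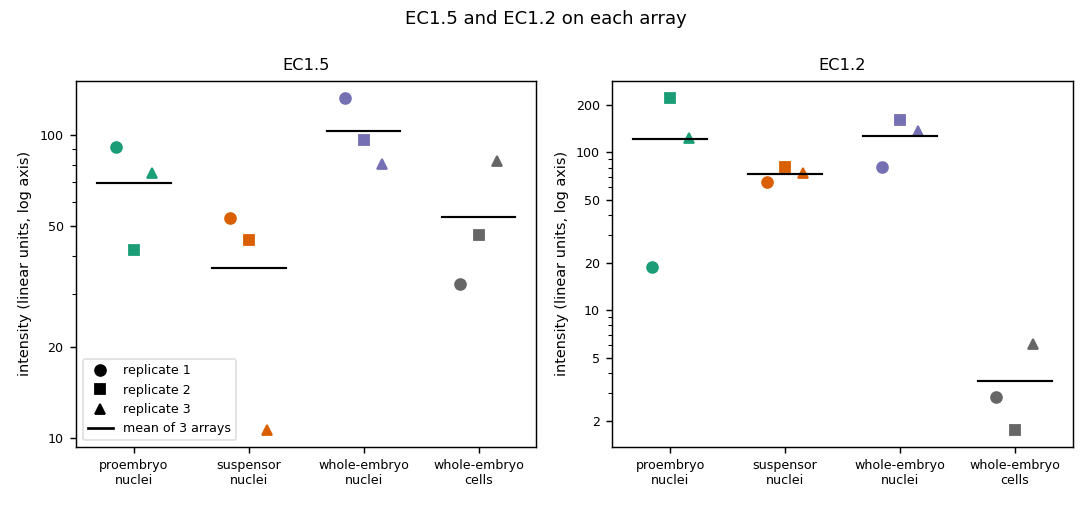
Intensity (linear units, log axes with a scale of their own in each panel) of EC1.5 and EC1.2 on each array; shapes give the replicate number and bars the mean of 3 arrays. EC1.2 lies between 1.74 and 6.13 in cells and at 18.8 or above on the nuclear arrays, whereas EC1.5 in cells, from 32.3 to 81.9, overlaps the nuclear groups.

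The other listed genes of these pathways could be read for few members. Of 12 genes listed for DNA demethylation, 3 have a named probe set: DME and the loci AT3G14890 and AT3G48425. By limma 0 of the 3 passed in the 4 comparisons. Of all probe sets tested, 2.03% passed for suspensor against proembryo nuclei and 1.56% for suspensor against whole-embryo nuclei. The share was 0% for proembryo against whole-embryo nuclei and 6.77% for cells against whole-embryo nuclei. At these shares 0 of 3 genes says little. An unadjusted p under 0.05 was reached by 1 of the 3 in suspensor against whole-embryo nuclei (14.3% of all probe sets tested). In cells against whole-embryo nuclei it was also reached by 1 of the 3 (23.9%). Their median difference between suspensor and proembryo nuclei was -0.01, against 0.01 over all probe sets tested. AT3G14890 stood at -0.14 (SE 0.342) there and at -0.65 (SE 0.289, limma adjusted p = 0.201) in cells against whole-embryo nuclei. AT3G48425 stood at -0.01 in both comparisons (SE 0.405 and 0.382).

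Of 18 genes listed as imprinted, MPC, AGL28 and ADM (AT4G11940, also called ADMETOS) have a named probe set. In cells against whole-embryo nuclei 2 of them were tested, and MPC was the 1 past the threshold. Of all probe sets tested there, 2.71% passed as higher in cells. ADM read 81.9, 74.1 and 80.8 in cells against 18.2, 58.3 and 106 in whole-embryo nuclei (0.49, SE 0.485, adjusted p = 0.578). AGL28, a MADS-box gene, met the filter in no fit and read 111, 132 and 48.8 in cells and 36.5, 62.6 and 48.8 in whole-embryo nuclei.

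No gene of the lists for DNA methylation and its maintenance (17), RNA-directed DNA methylation (11), Polycomb repressive complex 2 (8) or poly(A)-binding proteins (8) has a named probe set here. Of the other list genes, markers included, 8 were tested among nuclei and 7 between cells and nuclei, and 0 passed by limma in the 4 comparisons. Of all probe sets tested, 2.03%, 1.56%, 0% and 6.77% passed, in the order given below, so 0 among so few genes says little. At an unadjusted p under 0.05 the numbers were 2 of 8 for suspensor against proembryo nuclei, where 16.0% of all probe sets tested reached it, and 2 of 8 for suspensor against whole-embryo nuclei, where 14.3% did. They were 0 of 8 for proembryo against whole-embryo nuclei, where 3.14% did, and 1 of 7 for cells against nuclei, where 23.9% did.

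The labelled tissues could be checked only in part. None of the 6 suspensor markers and 2 of the 11 embryo markers have a named probe set. BBM, an AP2-type regulator that can induce embryo formation, stood at -1.05 in suspensor minus proembryo nuclei (SE 0.302, limma adjusted p = 0.0815), and PHV, a leaf polarity factor, at 0.15 (SE 0.752). Of 4 synergid and central cell markers, AGL61 and AGL80 have a named probe set, with summed intensity from 163 to 199 in suspensor and 100.4 to 264 in proembryo nuclei. The seed coat marker BAN read from 4435 to 16697 over all arrays. BBM read from 76.3 to 660 and PHV from 6.29 to 361. The share of seed coat in the samples was not tested.

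Genes with the most similar profile were sought among 991 genes with a symbol, by the root mean square difference of log2 values over the 12 arrays after each probe set's mean was subtracted. This is a description of genes chosen for likeness, over arrays that share their groups, and no test applies. For MPC they were SCPL45, a serine carboxypeptidase-like gene (0.42 log2 units), SBPASE, an enzyme of the Calvin cycle (0.44), and TPI, a triosephosphate isomerase (0.47), where the median over all candidates was 0.97. MPC itself varied by 0.87 around its mean, so a flat profile also lies nearer to it than the median candidate does. SCPL45 averaged 1330 ± 421 in cells, 518 ± 134 in suspensor, 379 ± 56.5 in whole-embryo and 352 ± 66.6 in proembryo nuclei (SD, n = 3), the order found for MPC.

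For DME 250836_at the nearest were UBP19, a ubiquitin-specific protease (0.19), NTMC2T6.1 (0.28) and PIR121 (0.29), with a median of 0.65 over candidates. DME itself varied by 0.46 around its mean, so a flat profile lies nearer to it than the median candidate, though farther than these 3 genes. For EC1.5 they were BPM3 (0.31), the splicing factor gene PRP39 (0.39) and RALFL34, a secreted peptide (0.40), with a median of 0.81. EC1.5 itself varied by 0.64 around its mean, so here too a flat profile lies nearer than the median candidate. Of the 3 genes nearest EC1.5, 1 was again among the nearest with a pseudocount of 1 and 1 with quantile normalization.

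**Figure D4:**
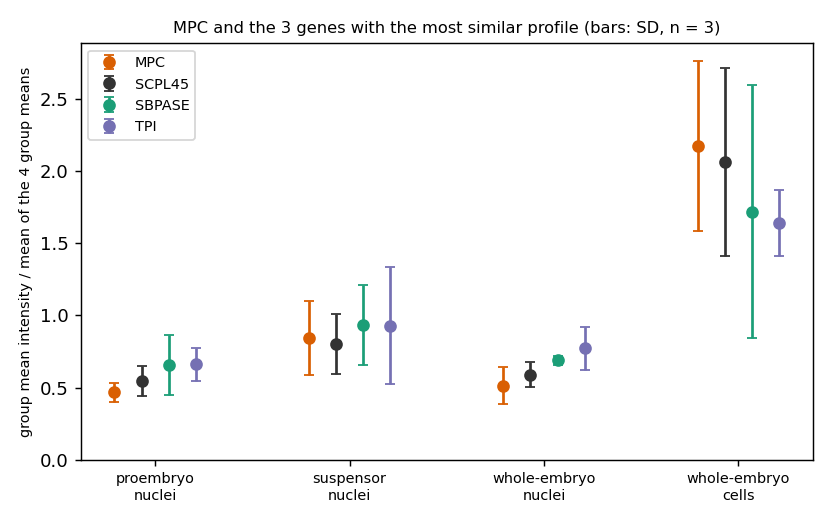
Group means of MPC and the 3 genes chosen for the most similar profile, each divided by the mean of its 4 group means (linear scale, no units); bars are SD of 3 arrays on the same scale. All 4 genes are highest in whole-embryo cells and next in suspensor nuclei.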

How the data were processed

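Each array was deposited as linear intensity values, 1 per probe set, without detection calls. MAS5 and affy 1.32.1 are named in the submitters' processing notes, with no role given. A mean trimmed by 2% at both ends of the 22810 values came to 200.02 on all arrays, so nothing was rescaled. No source used here gives the background correction or the summarisation. Precision is limited by having 3 arrays per group.

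Probe sets were named from the platform annotation. Symbols and gene order, and no coordinates, came from a gene table of assembly TAIR10.1. Of 22746 non-control probe sets, 13513 had 1 gene, 503 several and 8730 are unnamed here.

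Values were tested as log2(intensity + 16) in R 4.3.3 with limma 3.58.1, by lmFit and by eBayes with an intensity trend. A fit of 9 arrays gave the 3 comparisons among nuclei, a fit of 6 gave cells against whole-embryo nuclei, and a fit of all 12 gave cells against each lineage. The 64 control probe sets were left out. The procedure was tested on simulated data. Python 3.11.15, pandas 2.3.3 and scipy 1.17.1 served for names and permutation tests.

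All members were reported, with every listed gene that has a named probe set and the 3 most similar genes per member. The members and lists were chosen with earlier results of these data known. The alternatives were other offsets, filters, scalings and sets of arrays, no intensity trend, a replicate block, the control level as a covariate, and leaving out each array.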

Additional observations from a re-analysis of the deposited data

How the results depend on the processing

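MPC in cells against whole-embryo nuclei passed in 9 of 10 settings other than leaving out an array, between 1.69 and 2.09; with the hybridisation control level as a covariate it was 1.55 (adjusted p = 0.219), with 8 probe sets past the threshold in place of 803. Without any 1 array it passed, between 1.82 and 2.20 (adjusted p 0.000556 to 0.0322). No other difference of DME 250836_at, MPC or EC1.5 in the 4 main comparisons passed under any alternative run. EC1.5 missed the filter, and gave no value, without proembryo replicate 1, whole-embryo nuclei replicate 1 or 2 or cell replicate 3 where these were in the fit, with 6 arrays required above the median, and for suspensor against a single other group in the fits of those 6 arrays. Its difference between suspensor and whole-embryo nuclei ran from -1.73 (pseudocount 1) to -0.75 (pseudocount 64). Signs turned for DME in cells against nuclei (0.056 with median centring, 0.061 with the control covariate, -0.31 to 0.091 without 1 array) and for MPC in proembryo against whole-embryo nuclei (-0.22 to 0.072 without 1 array). Of the 6 group pairs, 5 kept their order on DME 250834_at and 250835_at with median centring and quantile normalization, and on 250836_at with median centring. Median centring moved the median of all probe sets to 0.14 in cells against nuclei and -0.11 in suspensor against whole-embryo nuclei.

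Of 260 values for other listed genes, 16 turned sign, 0 of them past the threshold: AT3G48425 in cells against nuclei (0.0099 with a pseudocount of 1, 0.12 with median centring, 0.017 with quantile normalization, 0.88 with the control covariate), and others without 1 array. These ranged, in suspensor against proembryo nuclei, from -0.51 to 0.096 for AT3G14890, -0.22 to 0.27 for AT3G48425, -1.04 to 0.35 for EC1.2 and -0.40 to 0.80 for PHV, and in cells against nuclei from -0.48 to 0.31 for AT3G48425, -0.0057 to 0.55 for ADM (AT4G11940) and -0.37 to 1.62 for PHV.

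The replicate numbers pair nothing that the labels state, and deviations of same-numbered arrays correlated between -0.14 and 0.10. With the replicate block MPC in cells against nuclei stayed at 1.96 (adjusted p = 0.00342), and no call on a member changed.

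The number of probe sets past the threshold, 260, 199, 0 and 803 in the 4 comparisons, ranged from 17 to 421, 9 to 309, 0 to 1 and 8 to 1287.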

Other observations

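The nearest protein-coding genes on either side of MPC, found by gene order, are AT3G19340 and AT3G19360. In cells against whole-embryo nuclei, where MPC stood at 1.96, they stood at 0.86 (SE 0.293, limma adjusted p = 0.104) and -0.04 (SE 0.289, adjusted p = 0.953). SIR, beside DME, stood at 0.73 (SE 0.308, adjusted p = 0.181), and AT5G64730, beside EC1.5, at -0.20 (SE 0.362, adjusted p = 0.781). AT5G04550, on the other side of DME, met the filter in neither fit. AT5G64710, on the other side of EC1.5, was not kept in the fit of cells and whole-embryo nuclei. In suspensor minus whole-embryo nuclei, where EC1.5 stood at -1.28, AT5G64710 stood at 0.63 (SE 0.620, limma adjusted p = 0.701). AT5G64730 stood at -0.57 there (SE 0.513, adjusted p = 0.673), so the 2 neighbours of EC1.5 differed in sign. These genes were chosen after the values of the members had been seen.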
